A study of Mus musculus with 22 samples.

Results

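The 9 genes of the Myc and Myb groups described here were Myc, Mycn, Mycl, Max, Mxd1, Mxd4, Myb, Mybl1 and Mybl2, and what was measured at them was histone H3 lysine 27 acetylation (H3K27ac), which marks promoters and enhancers in use. Their members among the peaks were chosen by position alone: every H3K27ac peak overlapping a gene body or lying within 20 kb of it, plus the peaks in the 2 Mb downstream of Myc and the 150 kb upstream of Myb, since enhancers of both genes are known to lie far from their promoters. Peaks of the 3 libraries that overlapped by at least 1 bp were joined into regions, which gave 55 regions at these genes of 34595 on all chromosomes. Of the 55, 22 were shared by all 3 libraries, 8 by 2 of them, and 25 were seen in 1. The genes took 40 of 23410 peaks in replicate 1, 43 of 25963 in replicate 2 and 32 of 23758 in replicate 3.

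The study compared blood cells with wild-type and truncated Bcor, an X-linked subunit of a Polycomb repressive complex, in 22 samples, of which the 3 H3K27ac ChIP-seq libraries are analysed here and the other 19 are not. All 3 came from KL cells (Lin- cKit+ Sca1-, the gate for bone-marrow myeloid progenitors) of male C57BL/6 Bcor fl/y mice with the scl-Cre-ERT transgene. In these mice the Cre recombinase is driven by Tal1 control elements active in haematopoietic stem cells. Tamoxifen was injected into the peritoneum at 1 mg per day for 5 days when the mice were 3 to 6 months old, which removed exons 9 and 10 of Bcor, and cells were taken 20 weeks later. The product, BcorΔE9-10, ends early and lacks the PUFD domain. No wild-type H3K27ac library was analysed here, so every value below describes BcorΔE9-10 cells and none compares genotypes. The peaks were called in each library on its own.

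The proteins of the Myc group bind DNA as pairs. Myc, Mycn and Mycl each pair with Max on the sequence called the E-box and promote transcription of genes for growth and ribosome production, while Mxd1 and Mxd4 pair with Max on the same sequence and repress. Myb is a transcription factor needed for blood progenitors, Mybl2 (B-Myb) acts in dividing cells with the MuvB complex at cell-cycle genes, and Mybl1 (A-Myb) is known chiefly for its part in male meiosis. In blood, Myc is controlled in part by enhancers more than a megabase downstream, and Myb by elements between it and the neighbouring gene Hbs1l.

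The labelled cell type was checked against its markers first. All 7 myeloid progenitor markers had an H3K27ac peak within 2.5 kb of a transcription start site (TSS) in all 3 libraries, from Cd34 at a mean fold enrichment of 5.02 ± 1.32 (SD, n = 3) to Kit at 9.77 ± 0.16. None of 3 T cell, 3 red cell, 4 neutrophil and 4 non-blood markers had one in all 3. The exception in a single library was the neutrophil gene Ngp, at 5.29 in replicate 2. Of all 21911 protein-coding genes, 43.9% had such a peak in all 3 libraries. The means of the 7 progenitor markers all lay below 10.2, the median of those 9623 genes. They ran from percentile 7.51 (Cd34) to 47.1 (Kit). Fold enrichment is the height of the strongest summit over the local background that the peak caller estimated, and a peak list holds only what passed its threshold, so a missing peak does not show that the mark was absent.

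Sequences are printed for the promoters that held a motif match and for that of Myb, to set promoters with a peak beside that of Mycn, where none was called, and for regions over 2.5 kb from a protein-coding start site that the results on Max, Myc and Myb turn on. Promoters are from RefSeq (GRCm38.p6, 250 bases before to 50 after the start, on the gene's strand), where 7 of the 9 genes were found. Myc and Mybl1 were not among them, so their promoters were not searched. The regions are 300 bases about the strongest summit, from the plus strand of GRCm38. Capitals mark matches on either strand to any of 7 motifs. The E-box was searched as CACGTG, which is its own reverse complement, and the Myb motif as TAACNG. The motif of GATA factors was AGATAA and that of Runx factors TGTGGT. The motif of PU.1 was GAGGAAG and that of C/EBP factors TTGCNNAA. The motif of E2F factors was TTTCCCGC or else TTTGGCGC. No 2 matches overlapped in the printed windows.
Max promoter, chr12:76962199-76962498: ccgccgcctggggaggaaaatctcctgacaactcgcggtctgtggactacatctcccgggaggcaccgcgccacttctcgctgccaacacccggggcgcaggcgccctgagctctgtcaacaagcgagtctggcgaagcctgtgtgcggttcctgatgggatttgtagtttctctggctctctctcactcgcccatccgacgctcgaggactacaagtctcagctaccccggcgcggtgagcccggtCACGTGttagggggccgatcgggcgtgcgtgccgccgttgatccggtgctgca
Mxd4 promoter, chr5:34187661-34187960: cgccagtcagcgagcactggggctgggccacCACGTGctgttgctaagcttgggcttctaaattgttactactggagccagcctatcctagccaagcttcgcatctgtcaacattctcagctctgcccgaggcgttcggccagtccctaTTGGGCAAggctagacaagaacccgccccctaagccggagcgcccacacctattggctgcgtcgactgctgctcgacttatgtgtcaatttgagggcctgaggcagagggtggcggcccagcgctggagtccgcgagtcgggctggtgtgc
Mybl2 promoter, chr2:163054385-163054684: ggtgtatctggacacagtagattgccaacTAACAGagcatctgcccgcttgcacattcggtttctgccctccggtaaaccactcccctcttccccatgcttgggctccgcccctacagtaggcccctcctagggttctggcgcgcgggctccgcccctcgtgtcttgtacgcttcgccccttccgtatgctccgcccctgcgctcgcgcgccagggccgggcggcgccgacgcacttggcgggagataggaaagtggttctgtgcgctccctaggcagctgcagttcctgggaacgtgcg
Myb promoter, chr10:21160935-21161234: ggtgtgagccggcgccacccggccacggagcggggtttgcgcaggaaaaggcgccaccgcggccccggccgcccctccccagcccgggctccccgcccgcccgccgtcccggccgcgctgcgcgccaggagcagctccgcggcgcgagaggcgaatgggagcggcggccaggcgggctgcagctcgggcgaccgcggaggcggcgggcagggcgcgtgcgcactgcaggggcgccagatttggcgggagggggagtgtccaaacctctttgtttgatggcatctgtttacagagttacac
Mycn promoter, chr12:12941787-12942086: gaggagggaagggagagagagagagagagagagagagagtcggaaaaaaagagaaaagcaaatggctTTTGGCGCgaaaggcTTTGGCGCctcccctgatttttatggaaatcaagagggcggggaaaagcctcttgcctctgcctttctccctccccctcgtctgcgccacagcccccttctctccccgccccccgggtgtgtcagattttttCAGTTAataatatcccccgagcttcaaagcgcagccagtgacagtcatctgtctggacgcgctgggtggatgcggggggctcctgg
Max intron, chr12:76957354-76957653: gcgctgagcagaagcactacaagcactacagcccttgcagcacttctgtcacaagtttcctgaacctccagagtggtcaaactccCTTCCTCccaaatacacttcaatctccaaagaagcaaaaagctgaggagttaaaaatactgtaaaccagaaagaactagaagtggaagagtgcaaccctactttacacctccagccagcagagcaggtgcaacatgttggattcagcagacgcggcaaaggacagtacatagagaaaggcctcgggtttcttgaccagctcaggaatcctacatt
Myc downstream, chr15:63704330-63704629: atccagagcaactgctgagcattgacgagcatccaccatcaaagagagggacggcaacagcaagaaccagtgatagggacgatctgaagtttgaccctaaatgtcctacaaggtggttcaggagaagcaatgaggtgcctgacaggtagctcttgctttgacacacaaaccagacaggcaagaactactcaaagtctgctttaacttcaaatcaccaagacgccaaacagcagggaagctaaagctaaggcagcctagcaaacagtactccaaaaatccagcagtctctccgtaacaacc
Myb upstream, nearest, chr10:21186982-21187281: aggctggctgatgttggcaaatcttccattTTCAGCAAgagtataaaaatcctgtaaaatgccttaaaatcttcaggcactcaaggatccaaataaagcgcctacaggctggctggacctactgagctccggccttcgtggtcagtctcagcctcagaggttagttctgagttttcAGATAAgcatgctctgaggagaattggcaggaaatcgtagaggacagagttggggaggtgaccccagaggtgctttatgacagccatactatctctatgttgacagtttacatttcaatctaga
Myb upstream, second, chr10:21188757-21189056: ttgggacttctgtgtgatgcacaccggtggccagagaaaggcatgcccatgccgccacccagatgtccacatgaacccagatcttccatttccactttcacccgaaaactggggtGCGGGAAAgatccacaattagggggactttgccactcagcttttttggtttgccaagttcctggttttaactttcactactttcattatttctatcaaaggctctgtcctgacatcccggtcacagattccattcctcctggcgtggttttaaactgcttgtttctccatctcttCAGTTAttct
Myb upstream, farthest, chr10:21251975-21252274: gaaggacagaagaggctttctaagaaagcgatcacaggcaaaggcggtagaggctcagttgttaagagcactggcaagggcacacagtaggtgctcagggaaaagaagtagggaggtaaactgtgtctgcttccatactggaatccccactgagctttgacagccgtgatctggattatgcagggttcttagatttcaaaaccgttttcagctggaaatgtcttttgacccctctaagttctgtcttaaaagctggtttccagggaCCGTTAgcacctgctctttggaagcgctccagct

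Among the 7 promoters searched, the E-box bound by Myc and Max pairs stood once in that of Max and once in that of Mxd4. These were the 2 members with the highest mean start-site acetylation. Whether the E-box went with acetylation was not tested, and the promoters of Myc and Mybl1 were not searched. The E-box was present in 7.15% of 32851 RefSeq mouse promoters. The Mxd4 promoter also held a C/EBP match (10.8% of promoters). The Mycn promoter held 2 E2F matches in a row (1.56% of promoters have any) and 1 Myb match, and the Mybl2 promoter 1 Myb match (23.3%). None of these letters were found in the Myb, Mxd1 and Mycl windows. The Myb window was 75% G and C with 40 CpG dinucleotides, against medians of 52.7% and 7 over all promoters. A match is a run of letters and not a binding site.

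At start sites, 6 of the 9 genes had a peak in all 3 libraries: Max, Mxd4, Mxd1, Mybl2, Myc and Myb. Over all 21911 protein-coding genes the share was 43.9%. Mybl1 had a peak in 2 libraries and Mycn and Mycl in none. In bulk cells, fewer cells with the mark and less of it per cell cannot be told apart. So of the 3 Myc paralogues Myc had a called promoter peak, and of the 3 Myb paralogues Myb and Mybl2 had one in every library.

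**Figure D1:**
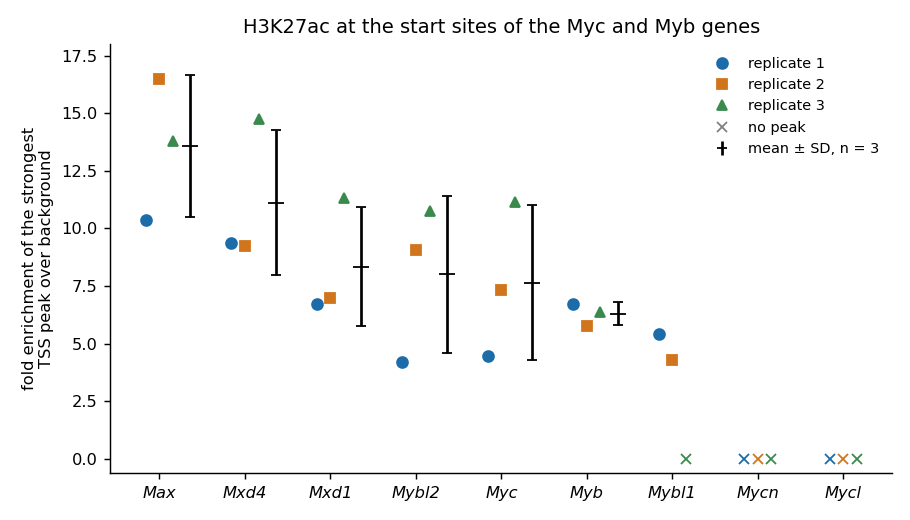
Fold enrichment (linear axis) of the strongest peak within 2.5 kb of any start site of each gene, 1 point per library, with the mean ± SD at the right of each gene that had a peak in all 3 and a cross where no peak was called. Max is highest by mean at 13.6 and Myb lowest of the 6 at 6.29, and the points of neighbouring genes overlap.

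Max, the shared partner of the whole network (chr12:76937269-76962201, minus strand), had fold enrichments of 10.4, 16.5 and 13.8 in replicates 1, 2 and 3 (13.6 ± 3.08), from 39, 65 and 58 fragments at the summit. This was the highest mean among the 9 genes and stood at percentile 69.3 of the 9623 genes with a start-site peak in all libraries. The repressor partner Mxd4 (chr5:34173883-34187720, minus strand) followed with 9.36, 9.26 and 14.7 (11.1 ± 3.14), of which replicate 3 was the high one. Mxd1, the second repressor (chr6:86647042-86669161, minus strand), had 6.74, 7.0 and 11.3 (8.35 ± 2.56), again highest in replicate 3.

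Myc itself (chr15:61985391-61990374, plus strand) had 4.47, 7.32 and 11.2 (7.65 ± 3.36), at percentile 30.4. The height rested on 13 fragments in replicate 1 (95% exact Poisson interval 6.92 to 22.2), 23 in replicate 2 and 36 in replicate 3 (25.2 to 49.8). The intervals of replicates 1 and 3 did not overlap, and they cover counting error only. Mybl2 (chr2:163054687-163084688, plus strand) spread as widely, with 4.2, 9.06 and 10.8 (8.0 ± 3.4) from 12, 28 and 34 fragments. In both genes the highest library was more than 2 times the lowest, by 2.5 for Myc and 2.56 for Mybl2, both at percentile 99.5 of all such ratios. That made 2 of 6 members, where 3.44% of 9623 genes reached a ratio of 2 and the median ratio was 1.35. The 9623 genes were not matched to the members in height or number of fragments.

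Myb (chr10:21124935-21160984, minus strand) was the steadiest member, with 6.74, 5.75 and 6.39 (6.29 ± 0.50) from 25, 22 and 25 fragments. Its height was at percentile 18.6, while its start-site peaks covered 1801 bp on average (percentile 85.5), as did those of Myc with 1645 bp (percentile 81.2), against a median of 1001 bp. Breadth here is the summed length of all peaks within 2.5 kb of any annotated start of the gene. It was not adjusted for the number of distinct starts, which was 6 for Myc and 6 for Myb. Both promoters were below the median in height and above it in this breadth. The same held for Mxd1 (percentiles 36.1 and 70.4) and Mybl2 (33.4 and 55.8), so it was not particular to Myc and Myb. Max and Mxd4 were above the median in both. The breadth of Myb varied, at 1592, 1271 and 2539 bp in replicates 1, 2 and 3. Mybl1 (chr1:9667415-9700209, minus strand) had 5.44 in replicate 1 and 4.30 in replicate 2, from 20 and 12 fragments, in stretches that overlapped, and no peak in replicate 3. Mycn (chr12:12936093-12941914, minus strand) had no peak nearer than 307 kb in any library, and Mycl (chr4:122995652-123002485, plus strand) none nearer than 21 kb.

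Replicate 1 was the lowest library for 4 of the 6 members and replicate 3 the highest for 4. Of all 9623 genes, 45.8% were lowest in replicate 1, 42.3% in replicate 2 and 11.9% in replicate 3, and their median fold enrichment was 9.36, 9.78 and 11.3 in the 3 libraries. The members' part in that difference between libraries was not tested. When the 6 genes were ordered by mean, the 5 neighbouring pairs were compared by an exact sign-flip permutation test, two-sided, whose smallest p with 3 libraries is 0.25. The pairs were set by these same values, so the test gives no independent support for the order. Mxd4 was above Mxd1 in all 3 libraries (mean log2 ratio 0.42 ± 0.05 SD, exact permutation p = 0.25, adjusted p = 0.9375 over the 5 pairs). That difference exceeded its spread over the libraries, although 3 libraries cannot give a p below 0.25 by this exact permutation test. The other 4 pairs changed order in at least 1 library, with a mean log2 ratio below its SD and exact permutation p from 0.5 to 1.0. The median of the 6 was 8.18 and that of all 9623 genes 10.2.

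The genes with start-site values most like those of Myc over the 3 libraries, by Euclidean distance of log2 values, were Cd63 at 4.40, 7.25 and 11.7 (distance 0.07) and Ssbp4 at 4.78, 7.04 and 11.5 (0.12). For Myb they were Madd at 6.74, 5.79 and 6.48 (0.02) and Arl14ep at 7.0, 5.75 and 6.39 (0.05).

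The marked stretch at Myc was split into 3 regions around the start, all in all 3 libraries, with strongest summits near 0.5 kb before it and 0.8 and 1.3 kb inside the gene. The first carried the heights given above, and those in the intron were lower, at 3.74, 4.80 and 4.30 and at 3.54, 4.25 and 5.69. Myb had the same arrangement of 3 regions, with the middle one, 0.3 kb inside the gene, the highest. Upstream of its start stood a region at 6.00, 3.68 and 5.65, and 2 kb inside the gene a weak one at 3.97, 2.60 and 4.0. Mxd4 had a pair flanking the start, at 9.36, 9.26 and 14.7 inside and 5.45, 7.5 and 6.01 before it. Mybl2 had 1 region in all libraries, 1202 bp long and lying over its start.

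**Figure D2:**
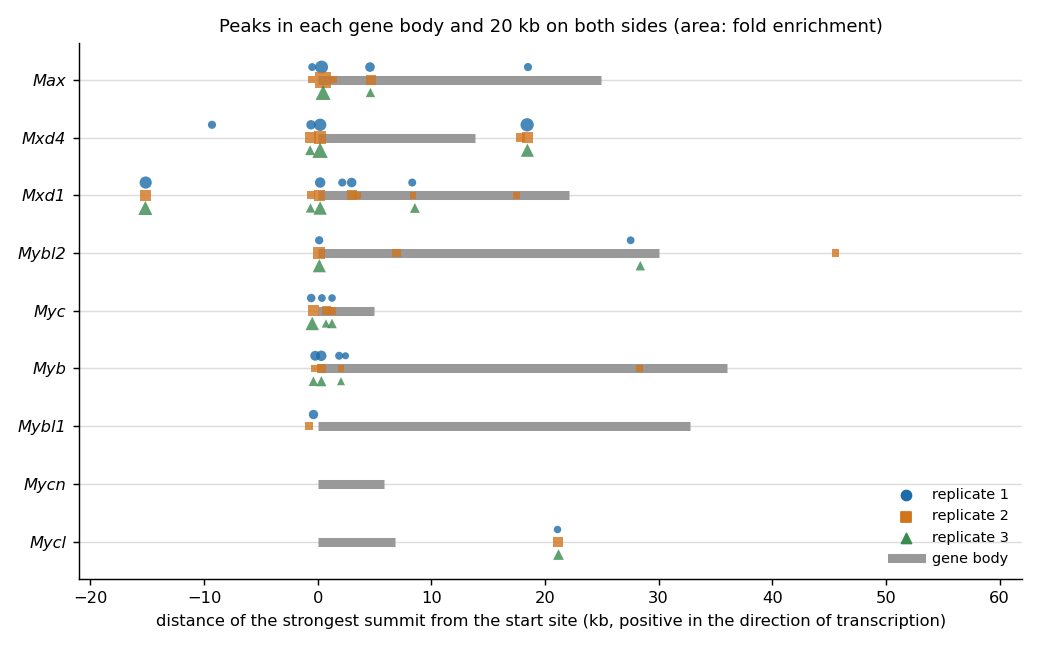
Strongest summit of each region in each gene body (grey bar) and 20 kb on both sides, by distance from the start site in kb, positive in the direction of transcription. Marker area is proportional to fold enrichment and rows follow the order of means. Marks gather at the starts of the 6 genes with a peak in every library, Max has a mark in all 3 libraries between 4 and 5 kb inside the gene, and Mycn has none. 1 region is not drawn.

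Inside the genes, Max alone had regions over 2.5 kb from every annotated start in all 3 libraries. The one described here, in an intron at chr12:76957215-76957790, had 5.70, 6.00 and 5.41. The SD of its mean (5.70 ± 0.30) was below that of the promoter of the same gene (3.08). Its printed window held the PU.1 letters, as did 16.1% of 3350 windows of this length at regions in all 3 libraries away from coding starts. Mxd1 had an intronic region at chr6:86660426-86661000 with 3.95, 3.00 and 5.99, 2105 bp from the start of a short Mxd1 transcript. In all, 3 of 22 distal regions of the 9 genes and their extended windows were in all 3 libraries, against 16.7% of 14757 distal regions on all chromosomes. Of 11 protein-coding neighbours with a start in these windows, 5 had a start-site peak in all 3 libraries and 6 in none. Over all 21911 protein-coding genes, 43.9% had one in all 3, which is near the share of these neighbours. Hbs1l, upstream of Myb, was one of the 5, and the others were Snrnp27 beside Mxd1 (9.68 ± 2.31), Poln and Haus3 beside Mxd4, which share 1 peak (9.58 ± 2.08), and Trit1 beside Mycl (5.50 ± 1.88).

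Downstream of Myc, 14 regions lay in the 2 Mb, of which 2 were within 2.5 kb of the start of the long non-coding RNA Pvt1 and 12 were distal. The Pvt1 peaks, at 4.10 in replicate 1 and 4.63 in replicate 2, were 53 kb from the Myc start and did not overlap each other. Beyond them, replicate 1 had a single peak before 1.6 Mb, at 1.14 Mb with 3.11, and replicates 2 and 3 had none. Then 10 of the 12 distal regions stood together within 93.3 kb, from 1.63 to 1.72 Mb downstream, after a gap of 488 kb. This stretch lies in an intron of the non-coding gene Gm41335. Here replicate 1 had 6 peaks, replicate 2 had 5 and replicate 3 had 4.

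**Figure D3:**
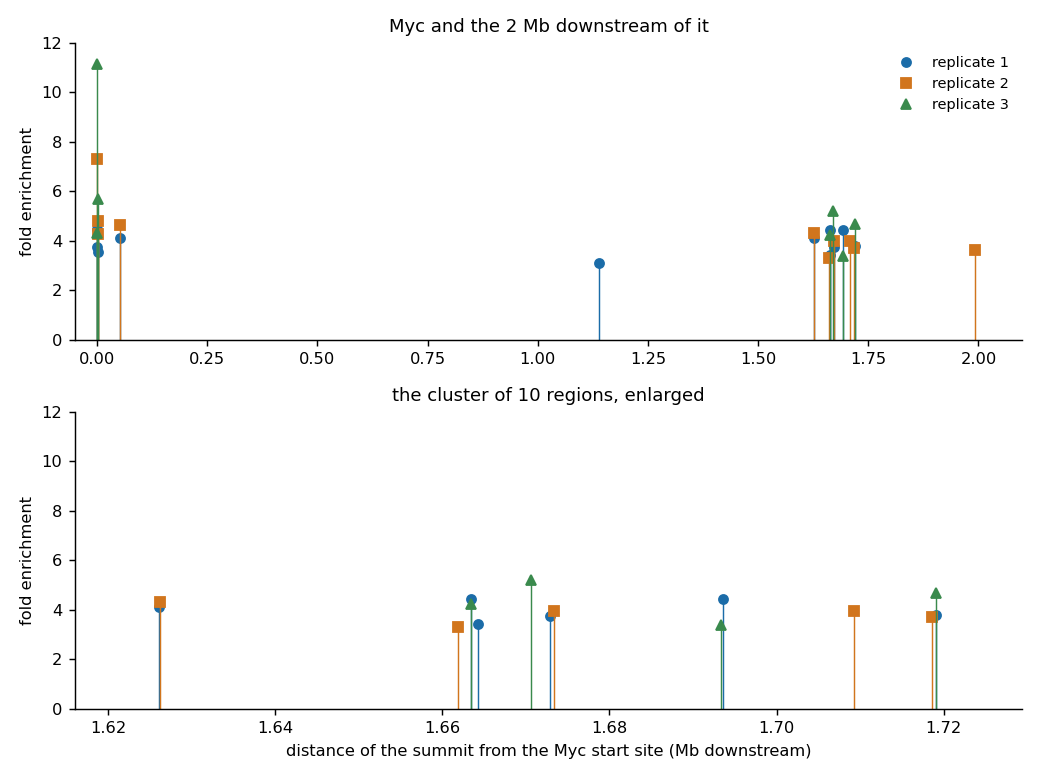
Fold enrichment (linear axis) of each peak at Myc and in the 2 Mb downstream, by distance of its summit from the Myc start in Mb, with the cluster of 10 regions enlarged below. Peaks in the cluster reach 5.20 at most, and the libraries share a position in all 3 once, near 1.72 Mb.

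The peaks of this cluster were weak, between 3.31 and 5.20 in fold enrichment and from 9 to 18 fragments, where a call needed at least 8 or 9. A single region of the 10 was in all 3 libraries, at chr15:63703824-63704797, 1.72 Mb from the start, with 3.77, 3.70 and 4.67 (4.05 ± 0.54) from 15, 11 and 18 fragments. None of the searched motifs was in its printed window. Of the others, 3 were in 2 libraries and 6 in 1, so that leaving out replicate 2 gave 3 regions shared by the rest and leaving out replicate 3 gave 2. Those in pairs of libraries were at 1.626 Mb (4.10 and 4.30 in replicates 1 and 2), at 1.663 Mb (4.44 and 4.23 in replicates 1 and 3) and at 1.694 Mb (4.44 and 3.38 in replicates 1 and 3). The strongest peak of all, 5.20, was in replicate 3 alone. The 1 shared region of 10 stands beside a share of 16.7% among all distal regions.

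As a whole the 2 Mb window was not dense in peaks. It held 3.50, 3.00 and 2.00 distal peaks per Mb in the 3 libraries, against 2.71, 3.30 and 2.68 over all chromosomes, a ratio of 0.98 ± 0.28 (SD over 3 libraries; two-sided exact sign-flip permutation p = 0.75), or 1.10 without replicate 3. Its 12 distal regions compare with a median of 11 in the 2 Mb downstream of 21666 genes, and its 1 shared region with a median of 1. The 4 protein-coding genes that start in it, Gsdmc and Gsdmc2 to Gsdmc4, had no start-site peak. The last region, at 1.99 Mb in an intron of Fam49b, was in replicate 2 alone at 3.64. The strongest distal peak of each library was compared with the Myc promoter. Its height was 0.99, 0.59 and 0.47 of the promoter's in replicates 1, 2 and 3 (0.68 ± 0.28, exact permutation p = 0.25). These peaks lay in different regions in the 3 libraries, so the ratio does not follow a single region. The strongest peak was below the promoter in 3 of 3 libraries, narrowly so in replicate 1, where the promoter itself was lowest.

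Upstream of Myb, 3 regions between the gene and Hbs1l had a peak in all 3 libraries. The nearest, chr10:21186630-21187306, 26 kb from the start, had 5.82, 5.75 and 7.37 (6.31 ± 0.92), close to the values of the Myb promoter. The second, chr10:21188738-21189129 at 28 kb, had 5.17, 3.89 and 4.66 (4.57 ± 0.65), and the farthest, chr10:21251882-21252286 at 91 kb, had 5.46, 5.95 and 5.53 (5.65 ± 0.27). Weaker peaks stood at 24.7 kb in replicates 2 and 3 (3.70 and 3.28) and at 31.2 and 67.8 kb in replicate 3 alone (4.02 and 2.79). The start of Hbs1l, which codes for a factor that rescues stalled ribosomes, carried 17.5, 15.3 and 18.1, the highest values of the interval.

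**Figure D4:**
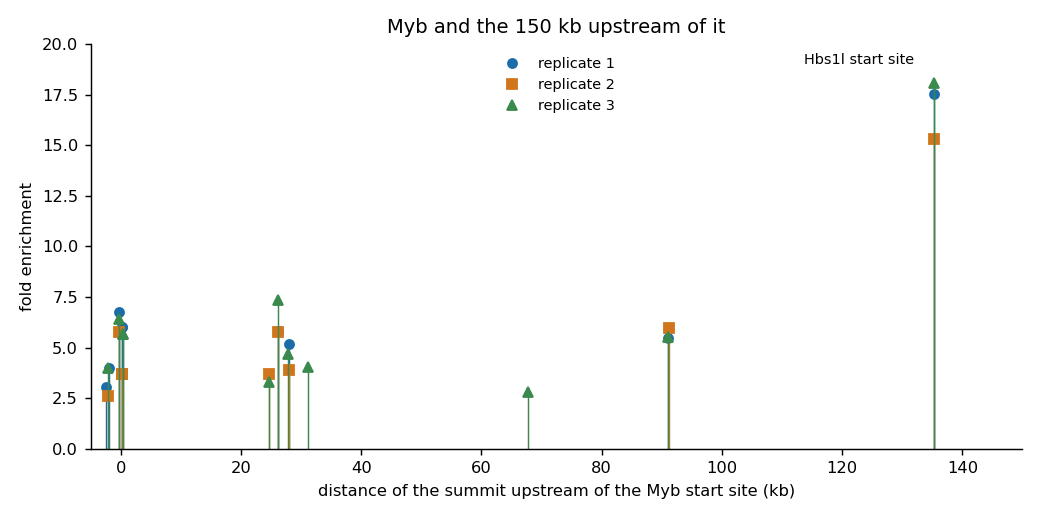
Fold enrichment (linear axis) of each peak at the Myb start and in the 150 kb upstream, by distance of its summit in kb upstream of the start. All 3 libraries have marks at 26, 28 and 91 kb, at heights of 3.89 to 7.37, and at the start of Hbs1l.

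Whether these Myb regions count as distal turns on the annotation. All 3 lie within 2.5 kb of the start of a non-coding RNA (Gm33619, Gm40608 or Gm33728), so when every annotated start was used the number of distal regions in all 3 libraries was 0. Replicate 3 alone then had distal peaks, 2 of them, and the density ratio to all chromosomes was 1.66 ± 2.88. A log ratio cannot be taken of a density of 0, so the difference in density was tested in its place, an alternative chosen after seeing the data. It was 1.55 ± 7.89 peaks per Mb (two-sided exact sign-flip p = 1.0, higher in 1 of 3 libraries). With starts of protein-coding genes alone the number was 3 of 6, where 18.5% of 18065 such regions on all chromosomes were in all 3 libraries. The window then held 20.0, 26.7 and 46.7 peaks per Mb, which was 5.89, 6.52 and 13.9 times the density over all chromosomes (8.77 ± 4.46, two-sided exact sign-flip p = 0.25, higher in 3 of 3 libraries). These densities rest on 3, 4 and 7 peaks. The 3 shared regions stood at percentile 98.3 of the 150 kb upstream of 21906 genes, whose median was 0, and all 6 regions at percentile 92.9. The second shared region had a −log10 q of 3.62 in replicate 2, which is below 5, the stricter cut used as an alternative. No other setting was varied together with protein-coding starts. With protein-coding starts alone, Myc gave a ratio of 0.88 ± 0.29.

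The strongest of these upstream peaks in each library was 0.86, 1.04 and 1.15 of the height of the Myb promoter (1.02 ± 0.15, exact permutation p = 1.0). It was in the region at 26 kb in replicates 1 and 3 and in that at 91 kb in replicate 2. In the printed windows, the nearest region held a GATA and a C/EBP match, the second a Myb and an E2F match, and the farthest a Myb match. Of the same 3350 windows, 10.3% held the GATA letters, 9.91% the C/EBP letters, 27.9% the Myb letters and 0.776% the E2F letters.

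Super-enhancers are stretches in which neighbouring marked regions add up to an unusually high total. Peaks within 12.5 kb, with start-site peaks kept, were stitched and ranked by summed signal, with the cut at the bend of the ranked curve. This called 1383 of 11779 stretches in replicate 1, 1083 of 12327 in replicate 2 and 1190 of 11525 in replicate 3. In this ranking a member was called once, Max in replicate 2, at rank 894 of 12327, and not in the other libraries, at ranks 2252 and 2488. No member was called in 2 or more libraries, against 18.4% of the 9623 genes. The Myc promoter ranked 5466, 4285 and 4095, and Myb 4349, 6217 and 3379. The stretches at the downstream Myc cluster were at percentile 38.2 or below, and those upstream of Myb were at percentile 49.4, 45.8 and 50 for the group at 25 to 31 kb.

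**Figure D5:**
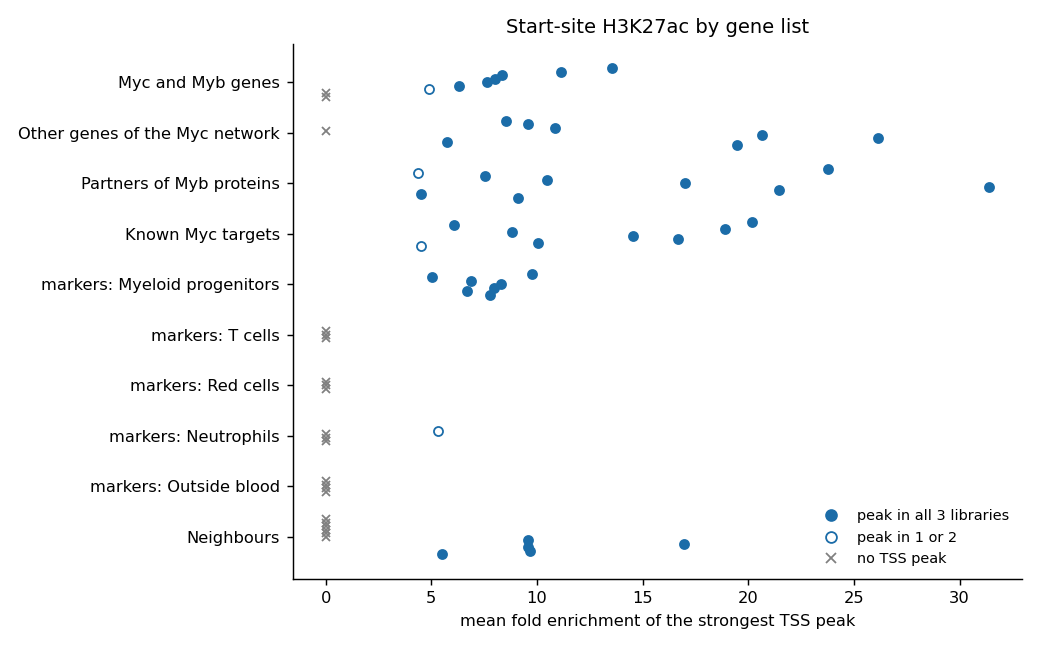
Mean fold enrichment (linear axis) of the strongest start-site peak, 1 point per gene, for the 9 genes and for each list of other genes; filled points had a peak in all 3 libraries, open points in 1 or 2, and crosses at 0 in none. Members with a peak in all libraries reach 13.6, while Mxi1 and Ep300 in the lists of partners reach 26.1 and 31.4.

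The same measure was taken at other genes of both pathways. The counts below stand beside a share of 43.9% of all 21911 protein-coding genes with a start-site peak in all 3 libraries. Of 8 further genes of the Myc network, 7 had a start-site peak in all 3 libraries and Mlxipl, a glucose-responsive factor of liver and fat, had none. The repressor partners Mxi1 (26.1 ± 4.26) and Mnt (20.6 ± 1.91) and the Myc-binding factor Zbtb17, also called Miz1 (19.5 ± 1.72), were the highest. Mxd3, another Mxd repressor, was the lowest of the 7 at 5.73 ± 0.61. Of 9 partners of Myb proteins, 8 had a peak in all 3 and Lin37, a MuvB subunit, in 2. The acetyltransferases Ep300 (31.4 ± 2.34) and Crebbp (21.5 ± 1.49), which bind Myb, and the MuvB subunit Lin9 (23.8 ± 1.16) led this list, and Men1 was lowest of the 8 at 4.53 ± 1.15. Of 8 known Myc targets 7 were in all 3, led by Ncl, a nucleolar protein, at 20.2 ± 4.54, and Odc1, the first enzyme of polyamine synthesis, at 18.9 ± 0.77, and Cad was in 2. The medians of the 3 lists over genes with a peak in all libraries were 10.9, 13.7 and 14.5, beside 10.2 for all 9623 genes. In the ranking of stitched peaks, Mxi1, Mnt, Lin9, Ep300 and Crebbp were called in all 3 libraries. That ranking kept start-site peaks, and the start-site heights of these genes stood from percentile 91.0 (Mnt) to 99.2 (Ep300). Of the 9623 genes, 18.4% were called in 2 or more libraries, and the share called in all 3 is not given here. Whether these genes would be called from reads was not tested.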

How the data were processed

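H3K27ac ChIP-seq libraries of KL cells from BcorΔE9-10 mice were sequenced by the authors as single-end reads, trimmed with cutadapt (1.7), aligned with Bowtie2 to GRCm38 (mm10), and peaks were called per library with MACS2 (2.1.1). The control and settings used for MACS2 are not given in the sources used here. The deposited peak files give per summit a score, a fold enrichment ratio, and −log10 p-values and q-values. The score repeats the −log10 q, multiplied by 10 without decimals, and entered no result.

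Rows of 1 interval were joined, the strongest summit was kept, and peaks of the 3 libraries were merged from 1 bp of overlap. Starts and genes are from GENCODE M21, and a peak within 2.5 kb of an annotated start was called TSS-proximal. Whole fragments at each summit were recovered from the fold and p-value, which gave a solution for 100% of rows. Assuming fragments of 200 bp and an effective genome of 1.87 Gb, depth was estimated at 18.0, 18.9 and 19.3 M reads, and at least 8, 8 and 9 fragments were needed for a call. This fragment step was tested on simulated data, and the merging and the sign-flip test on a few made-up cases with known answers. Ratios were formed within a library and tested by an exact sign-flip permutation test, two-sided, with Benjamini-Hochberg adjustment over neighbouring pairs. The libraries are separate samples by their labels. p-values therefore measure the spread between them. Stitching was done here from peaks without reads and differs from a read-based super-enhancer call. All 9 genes are named, with the neighbours and lists given above. The genes, lists and motifs were chosen with earlier results of these data known. 1 marker list and the details of 1 intronic region are not reported here. Alternatives were a stricter q, reciprocal overlap, other windows, protein-coding starts, other measures, and leaving out each library. Python 3.11.15, numpy 2.4.6, pandas 2.3.3, scipy 1.17.1, statsmodels 0.14.6 and matplotlib 3.10.9 were used.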

Additional observations from a re-analysis of the deposited data

How the results depend on the processing

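No paired analysis was possible because 1 group alone was analysed. The number of members with a start-site peak in all libraries stayed between 4 and 7 under every alternative. The single shared region downstream of Myc was lost (0) with −log10 q of at least 5, with a reciprocal overlap of 50% and with a window of 1 Mb, and leaving out a library gave 1 to 3. The Myc density ratio was 0.31 with the stricter q, 0 with 1 Mb and 1.24 with a start-site window of 5 kb, which turned its direction, and 0.83 to 1.10 without a library. By the mean log2 ratio, which was tested, the direction turned without replicate 3, and the mean ratio itself also passed 1 without replicate 2 (1.02). Upstream of Myb, protein-coding starts gave 3 shared regions, a density ratio of 8.77 and a strongest peak at 1.02 of the promoter. That last ratio was 0.63 in the 1 library that has it when every start is used, 0.64 with a start-site window of 1 kb, 0.44 with 5 kb, 0.38 by −log10 p and 0.64 by fragments, and it could not be formed with the stricter q or without replicate 3. The Myb density ratio (1.66) was 0 with the stricter q and without replicate 3, 2.49 without replicate 1 or 2 and with 100 kb, 1.25 with 200 kb, 2.59 with a start-site window of 1 kb and 1.06 with 5 kb. The number of neighbouring pairs in the same order in every library was 2 in place of 1 by −log10 p, and 2 without any 1 library. The call of Max as a super-enhancer gene was lost with stitching within 20 kb, with start-site peaks left out, with summed fold enrichment and without replicate 2. The causes were not tested. Mean start-site heights moved by less than 1 SD in all 35 alternatives and 21 omissions of a library. Leaving out 1 of 2 or 3 values cannot move their mean by 1 SD, so the omissions could not show otherwise. Start-site windows of 1 kb and 5 kb and protein-coding starts left every mean height the same. The stricter q changed Myc, Mybl1 and Mybl2, by dropping libraries (Myc 9.24 from 2 libraries). These steps therefore do not show that the heights are stable. At this depth, distal peaks of 9 to 18 fragments lie near the smallest number that can be called, so a position missing in a library does not show a difference between libraries.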
